A study of Mus musculus with 33 samples.

Results

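The acute phase protein genes described here are the 10 genes Saa1, Saa2, Saa3, Orm1, Orm2, Hp, Lcn2, Apcs, Crp and Itih4, taken by gene symbol from a table of 21671 genes. All 10 symbols were in the table, and all 10 passed the filter on low values in both sets of libraries. Their products are plasma or secreted proteins that the liver makes in larger or smaller amounts during infection, injury and inflammation. Total RNA was sequenced from 33 C57BL/6 mouse livers and liver tumours in which MYC, β-catenin or both had been activated. The series asks about cooperation of the 2 oncogenes, both shortly after their activation and in established tumours.

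In the short-term arm, mice aged 6 to 8 weeks received an intravenous dose of 1e11 particles of AAV8-TBG-CRE and were analysed after 4 days. This adeno-associated virus carries Cre behind TBG, a promoter active in hepatocytes. The 5 wild-type livers of this arm had received the same virus. The 5 Ex3 livers carried b-cat Ex3, an allele that makes a stable β-catenin once Cre removes its exon 3. The 5 MYC livers carried R26-lslMYC, a MYC transgene at Rosa26 behind a stop cassette that Cre removes, and the 5 MYC+Ex3 livers carried both alleles. In the tumour arm, 3 MYC tumours came from Alb-CreERT2/R26-lslMYC mice and 3 MYC+Ex3 tumours from Alb-CreERT2/R26-lslMYC/b-catEx3 mice. Alb-CreERT2 is a Cre that is driven by the albumin promoter and is active only with tamoxifen or 4-hydroxytamoxifen (4-OHT). The labels call the tumours liver noduli and give them no treatment and no age. Their control was a group of 7 wild-type livers taken 4 days after an injection of 4-OHT. These controls carry none of the alleles, and only they are labelled as recently injected. The effects of Alb-CreERT2, of the recent 4-OHT injection and of any difference in age cannot be told apart from that of the tumour. Animal numbers differ between the titles of all libraries, but nothing states litters or cages, and p-values measure the spread between these samples.

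The acute phase response is set off by cytokines that Kupffer cells and other leukocytes release. Interleukin 6 binds its receptor and gp130 on hepatocytes and activates JAK kinases and the transcription factor STAT3, while interleukin 1 and tumour necrosis factor act through NF-κB. C/EBPβ and C/EBPδ bind many of the same promoters, and SAA genes in particular respond to both signals together. In mice, serum amyloid A and the orosomucoids are strongly inducible, serum amyloid P (Apcs) is the main inducible pentraxin, and Crp, unlike its human counterpart, responds little.

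Promoters were available for 8 of the 10 genes in the RefSeq table for GRCm38.p6. The 250 bases before the start were searched on both strands for TTCNNNGAA (a STAT-type motif), TTGCNNAA (a C/EBP-type motif, TTNNGCAA on the other strand) and an NF-κB-type motif (GGGNN followed directly by TTTCC). The C/EBP-type letters were found in 5 of the 8 promoters, those of Saa1, Saa2, Saa3, Orm2 and Lcn2, and in 9.56% of all 32851 promoters of the table. The STAT-type letters were found in Apcs and Itih4 and in 7.02% of all promoters, the NF-κB-type letters in none of the 8 and in 1.41% of all. No match overlapped another. The promoters of the Saa genes and of Orm2 are shown because these genes carried the widest and most divergent changes in the tumours. Each runs 5′ to 3′ in the direction of its gene, ends at the base before the start, and has the C/EBP-type match in capitals. Saa1 lies at chr7:46742981-46743230 on the minus strand, Saa2 at chr7:46751583-46751832 on the plus strand, Saa3 at chr7:46715677-46715926 on the minus strand and Orm2 at chr4:63362199-63362448 on the plus strand.
Saa1: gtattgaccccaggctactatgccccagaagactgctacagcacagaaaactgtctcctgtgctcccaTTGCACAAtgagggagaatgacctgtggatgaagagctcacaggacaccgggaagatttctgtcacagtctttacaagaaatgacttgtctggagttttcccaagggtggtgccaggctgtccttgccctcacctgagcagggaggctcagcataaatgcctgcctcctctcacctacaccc
Saa2: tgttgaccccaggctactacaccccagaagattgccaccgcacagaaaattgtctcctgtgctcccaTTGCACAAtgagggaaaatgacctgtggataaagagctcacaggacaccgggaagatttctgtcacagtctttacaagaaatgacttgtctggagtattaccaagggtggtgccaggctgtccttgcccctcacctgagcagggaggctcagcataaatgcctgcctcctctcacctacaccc
Saa3: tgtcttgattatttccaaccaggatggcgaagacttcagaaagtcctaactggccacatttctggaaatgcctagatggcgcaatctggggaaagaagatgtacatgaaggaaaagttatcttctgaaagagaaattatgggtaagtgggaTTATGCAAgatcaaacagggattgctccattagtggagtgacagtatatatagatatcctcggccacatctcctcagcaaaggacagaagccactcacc
Orm2: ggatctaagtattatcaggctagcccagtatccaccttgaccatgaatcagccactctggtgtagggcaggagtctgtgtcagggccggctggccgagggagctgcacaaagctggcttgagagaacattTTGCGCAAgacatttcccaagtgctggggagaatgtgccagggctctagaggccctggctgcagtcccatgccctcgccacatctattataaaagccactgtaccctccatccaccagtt
The match lay at bases -182 to -175 before the start in Saa1, -183 to -176 in Saa2, -99 to -92 in Saa3 and -120 to -113 in Orm2. Saa1 and Saa2 held the same 8 letters, TTGCACAA, where Saa3 held TTATGCAA and Orm2 TTGCGCAA. These matches describe the letters of the sequence and are not measured binding sites.

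The libraries held 3.75 to 7.31 M reads in genes in the short-term arm and 6.65 to 9.82 M in the tumour arm. Values are RPKM, in which reads are divided by gene length in kilobases and by a library total in M reads. The authors chose that total differently for the arms, so levels were compared only within an arm. Axin2, a target of β-catenin, stood at 18.4 ± 5.37 RPKM (SD, n = 5) in Ex3 livers and 3.32 ± 0.609 (n = 5) in wild-type livers, and at 9.89 ± 1.99 (n = 3) in MYC+Ex3 tumours and 0.362 ± 0.284 (n = 3) in MYC tumours. Reads on mouse Myc were 3.99 ± 0.751 RPKM (n = 5) in MYC livers and 2.57 ± 1.22 (n = 5) in wild-type livers, with overlapping ranges, and the labels do not give the species of the transgene. Ctnnb1 spans all its exons in these values and does not check the loss of exon 3. Albumin was present at 33.2 to 50.8 RPKM in all 6 tumours against 40.8 to 54.5 in the 4-OHT livers. Its log2 reads rose by only 0.15 per doubling of the library total in the tumour arm. These values therefore cannot show whether hepatocyte content was equal.

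The largest changes were in the tumours, where Saa1 and Saa2, the inducible serum amyloid A genes of hepatocytes, fell in MYC tumours and fell much further in MYC+Ex3 tumours. Orm2 and Orm1 (orosomucoids) and the pentraxins Apcs and Crp were also lower in both kinds of tumour. Saa3, a serum amyloid A gene that is also expressed outside hepatocytes, was instead higher in MYC+Ex3 tumours than in 4-OHT livers. Against the 4-OHT livers, 6 of the 10 genes fell and 0 rose in MYC tumours, where 49.8% of all 11854 genes tested were called and 13.7% were called lower. In MYC+Ex3 tumours 7 fell and 1 rose, where 60.6% of all genes were called, 18.4% lower and 42.3% higher. The authors' deposited table calls 7 of the 10 genes lower in MYC tumours and 8 in MYC+Ex3 tumours, where Hp and Itih4 are among them and Saa3 is not called higher. The median log2 change of the 10 genes was -0.69 in MYC tumours and -0.998 in MYC+Ex3 tumours, against 0.19 and 0.23 over all genes tested. A gene was called at a limma adjusted p under 0.05. As these are bulk tissues, fewer cells that express a gene cannot be told apart from less RNA per cell. Both tumour groups were compared with the same 4-OHT livers.

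**Figure D1:**
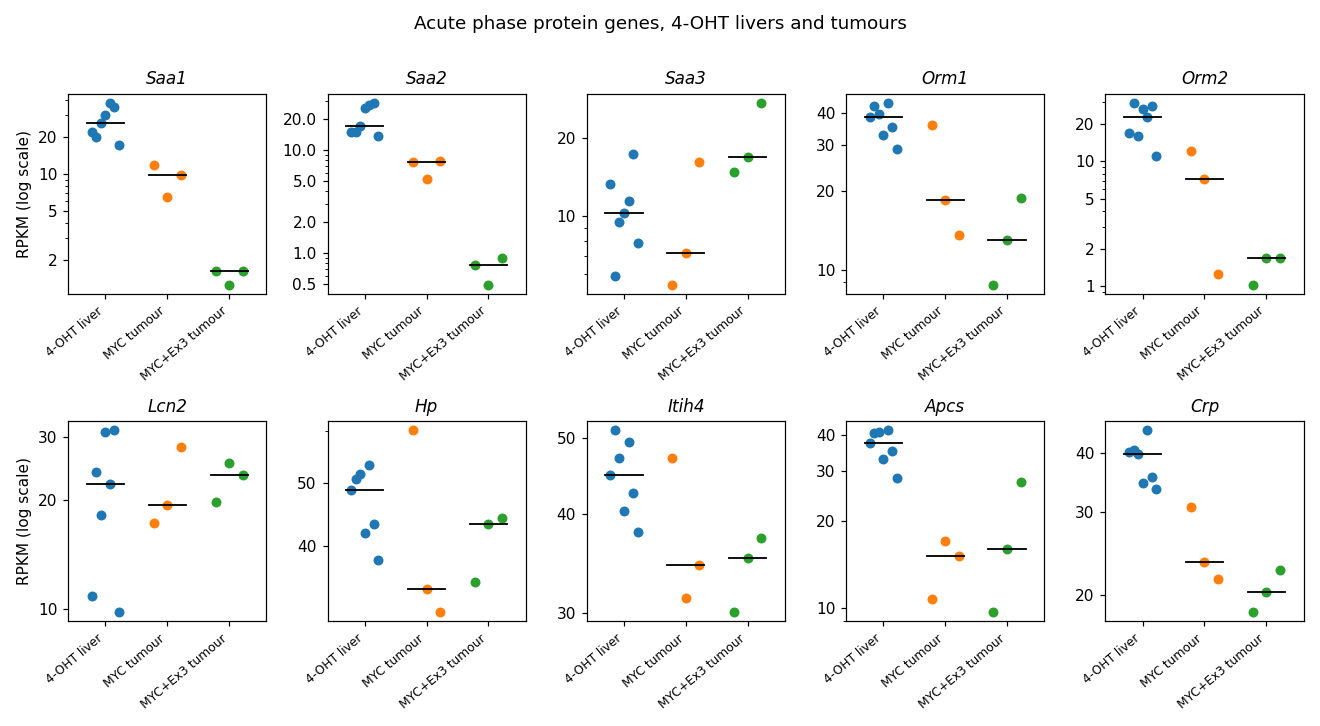
RPKM (log scale) of the 10 genes in 7 livers after 4-OHT, 3 MYC tumours and 3 MYC+Ex3 tumours, with one point per library and a black bar at the median. Saa1 and Saa2 fall in 2 steps, from 17.1 or more to 6.46 to 11.9 and then to 1.26 to 1.65 RPKM for Saa1, while Lcn2 and Hp overlap between all groups.

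Saa1 stood at 17.1 to 38.0 RPKM (median 25.9) in the 7 livers after 4-OHT, at 11.9, 6.46 and 9.81 RPKM in MYC tumours 1 to 3, and at 1.62, 1.26 and 1.65 RPKM in MYC+Ex3 tumours 1 to 3. No library of one group overlapped with another group. The mean was 2.86 times higher in 4-OHT livers than in MYC tumours and 17.7 times higher than in MYC+Ex3 tumours. The log2 change against 4-OHT livers was -1.41 ± 0.23 (SE) in MYC tumours (limma adjusted p = 0.00022) and -3.42 ± 0.23 in MYC+Ex3 tumours (limma adjusted p = 6.89e-08). MYC+Ex3 tumours were also lower than MYC tumours, by -2.02 ± 0.27 on the log2 scale (limma adjusted p = 0.00053). All such changes were computed on log2(RPKM + 1), where the added 1 shrinks the change of a gene at low RPKM.

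Saa2, the neighbour and near copy of Saa1, followed the same order. Its RPKM was 13.7 to 28.7 (median 17.0) in 4-OHT livers, 7.69, 5.23 and 7.77 in MYC tumours 1 to 3 and 0.767, 0.494 and 0.902 in MYC+Ex3 tumours 1 to 3. The groups did not overlap, and the last values rest on 9 to 17 reads a library. Against 4-OHT livers the log2 change was -1.39 ± 0.23 in MYC tumours (limma adjusted p = 0.00025) and -3.57 ± 0.23 in MYC+Ex3 tumours (limma adjusted p = 5.31e-08). Between the tumours it was -2.19 ± 0.27 (limma adjusted p = 0.00031). In the authors' deposited table the log2 fold change of Saa2 in MYC+Ex3 tumours against wild type is -4.86 and that of Saa1 -4.27. Of the 50-base windows of the transcript, 14.8% in Saa1 and 13.3% in Saa2 also occur in another Saa gene, so a part of the reads could be shared between them. Only exact matches were counted, so windows that differ by a few bases are left out of these shares. Saa1 and Saa2 were the members called between the tumour groups, 2 of 10 and both lower, where 4.13% of all genes were called, 2.1% lower and 2.02% higher.

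Saa3 went the other way. It was at 5.86 to 17.3 RPKM (median 10.3) in 4-OHT livers, at 5.43, 7.20 and 16.1 in MYC tumours 1 to 3 and at 14.7, 16.8 and 27.2 in MYC+Ex3 tumours 1 to 3. MYC+Ex3 tumours were high, and 2 of their 3 values lay within the range of the other groups. The log2 change against 4-OHT livers was 0.82 ± 0.31 in MYC+Ex3 tumours (limma adjusted p = 0.0348) and -0.22 ± 0.31 in MYC tumours (limma adjusted p = 0.578). The difference between the tumours, 1.04 ± 0.37, did not pass the threshold (limma adjusted p = 0.147). The rise in MYC+Ex3 tumours was not called after rescaling by the median ratio (0.61, limma adjusted p = 0.0936) or by reads in genes (0.69, limma adjusted p = 0.0902), nor without MYC+Ex3 tumour 2 (limma adjusted p = 0.0575) or 3 (0.57, limma adjusted p = 0.196) or without 4-OHT liver 2, 3 or 7 (limma adjusted p = 0.0584, 0.0524 and 0.059). Nor was it called without the filter on low values (limma adjusted p = 0.0619) or against the S15 set of 3 control livers alone, a set given by the titles (0.66, limma adjusted p = 0.175). In the authors' deposited table it has an adjusted p of 0.0516.

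Orm2, an orosomucoid (alpha-1-acid glycoprotein) of the acute phase, was the most uneven gene among the MYC tumours. It stood at 11.0 to 29.5 RPKM (median 22.6) in 4-OHT livers, at 12.1, 7.19 and 1.26 RPKM in MYC tumours 1 to 3, and at 1.03, 1.69 and 1.67 RPKM in MYC+Ex3 tumours 1 to 3. MYC tumour 3 was as low as the MYC+Ex3 tumours, and MYC tumour 1 lay within the range of the 4-OHT livers. The log2 change against 4-OHT livers was -1.78 ± 0.42 in MYC tumours (limma adjusted p = 0.00297) and -3.13 ± 0.42 in MYC+Ex3 tumours (limma adjusted p = 2.18e-05). Without MYC tumour 3 the first of these was -1.05 and still called. The difference between the tumours, -1.35 ± 0.49, missed the threshold (limma adjusted p = 0.159). It was -2.08 and called (limma adjusted p = 0.0034) without MYC tumour 3, and without that tumour Saa3 was also called higher in MYC+Ex3 than in MYC tumours (1.45, limma adjusted p = 0.0233).

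Orm1, the other orosomucoid described here, declined less. Its RPKM was 29.0 to 43.7 (median 38.5) in 4-OHT livers, 36.0, 18.6 and 13.6 in MYC tumours 1 to 3 and 8.78, 13.03 and 18.8 in MYC+Ex3 tumours 1 to 3. MYC tumour 1 overlapped with the 4-OHT livers, and the MYC+Ex3 tumours lay below all of them. The log2 change was -0.79 ± 0.25 in MYC tumours (limma adjusted p = 0.0185) and -1.44 ± 0.25 in MYC+Ex3 tumours (limma adjusted p = 0.00022). The fall in MYC tumours was not called without MYC tumour 2 (-0.71, limma adjusted p = 0.0653) or 3 (-0.50, limma adjusted p = 0.146), nor with sex as a covariate (limma adjusted p = 0.0532), nor against only the 3 control livers whose titles begin their number with S15 (-0.73, limma adjusted p = 0.124). Of the 50-base windows of Orm1 and Orm2, 20.4% and 22.7% also occur in another transcript of the family, so their reads can be split between them.

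Among the pentraxins, ring-shaped pattern recognition proteins of plasma, Apcs (serum amyloid P) was low in both kinds of tumour. It stood at 28.4 to 41.6 RPKM (median 37.4) in 4-OHT livers, at 10.7, 17.1 and 15.1 in MYC tumours 1 to 3 and at 9.65, 16.1 and 27.4 in MYC+Ex3 tumours 1 to 3. No tumour reached the 4-OHT livers, and MYC+Ex3 tumour 3 came closest. The log2 change was -1.32 ± 0.24 in MYC tumours (limma adjusted p = 0.00046) and -1.12 ± 0.24 in MYC+Ex3 tumours (limma adjusted p = 0.00095), with 0.20 ± 0.28 between the tumours (limma adjusted p = 0.78, 95% interval -0.40 to 0.79).

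Crp (C-reactive protein) was lower by a smaller amount. Its RPKM was 33.4 to 44.7 (median 39.7) in 4-OHT livers, 30.7, 23.4 and 21.6 in MYC tumours 1 to 3 and 18.4, 20.2 and 22.5 in MYC+Ex3 tumours 1 to 3. Both tumour groups lay below all 4-OHT livers and overlapped with each other. The log2 change was -0.59 ± 0.13 in MYC tumours (limma adjusted p = 0.00192) and -0.88 ± 0.13 in MYC+Ex3 tumours (limma adjusted p = 5.32e-05).

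Hp (haptoglobin, which binds free haemoglobin) and Itih4 (a heavy chain of the inter-alpha-trypsin inhibitor family) moved by less than 0.5 on the log2 scale. Hp stood at 38.1 to 53.1 RPKM in 4-OHT livers, 31.7 to 60.2 in MYC tumours and 35.2 to 44.2 in MYC+Ex3 tumours, with MYC tumour 1 the highest of all. That tumour had the smallest library total of the tumour arm (23.9 M), and its 1933 Hp reads lay within the 1912 to 2076 of the 4-OHT livers. The log2 change of Hp was -0.20 ± 0.18 in MYC tumours (limma adjusted p = 0.372) and -0.19 ± 0.18 in MYC+Ex3 tumours (limma adjusted p = 0.377). Without MYC tumour 1 the change in MYC tumours was -0.48 and called (limma adjusted p = 0.0095), and after rescaling by reads in genes that in MYC+Ex3 tumours was -0.37 and called (limma adjusted p = 0.0435). Itih4 stood at 38.0 to 51.2 RPKM in 4-OHT livers, 31.3 to 47.1 in MYC tumours and 30.1 to 37.3 in MYC+Ex3 tumours. Its fall was called in MYC+Ex3 tumours (-0.38 ± 0.14, limma adjusted p = 0.0309), where all tumours lay below all livers. It was not called in MYC tumours (-0.26 ± 0.14, limma adjusted p = 0.139) unless MYC tumour 1 was left out (-0.43, limma adjusted p = 0.0121) or the libraries were rescaled by the median ratio (-0.48, limma adjusted p = 0.00804) or by reads in genes (-0.40, limma adjusted p = 0.0062). In MYC+Ex3 tumours the call was lost without MYC+Ex3 tumour 1 (-0.29, limma adjusted p = 0.143) or 2 (limma adjusted p = 0.0639) and without 4-OHT liver 2, 3 or 5 (limma adjusted p = 0.0573, 0.0522 and 0.0532). It was also lost without the filter (limma adjusted p = 0.0636) and against either title set of control livers, S14 (limma adjusted p = 0.0557) or S15 (limma adjusted p = 0.178).

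Lcn2 (lipocalin 2, an iron-siderophore binding protein made by hepatocytes and neutrophils) overlapped between all 3 groups. It stood at 9.79 to 31.3 RPKM (median 22.3) in 4-OHT livers, at 17.3, 19.4 and 28.1 in MYC tumours 1 to 3 and at 19.8, 25.4 and 23.5 in MYC+Ex3 tumours 1 to 3. Its log2 change against 4-OHT livers was 0.12 in MYC tumours (95% interval -0.55 to 0.79) and 0.22 in MYC+Ex3 tumours (95% interval -0.45 to 0.89).

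**Figure D2:**
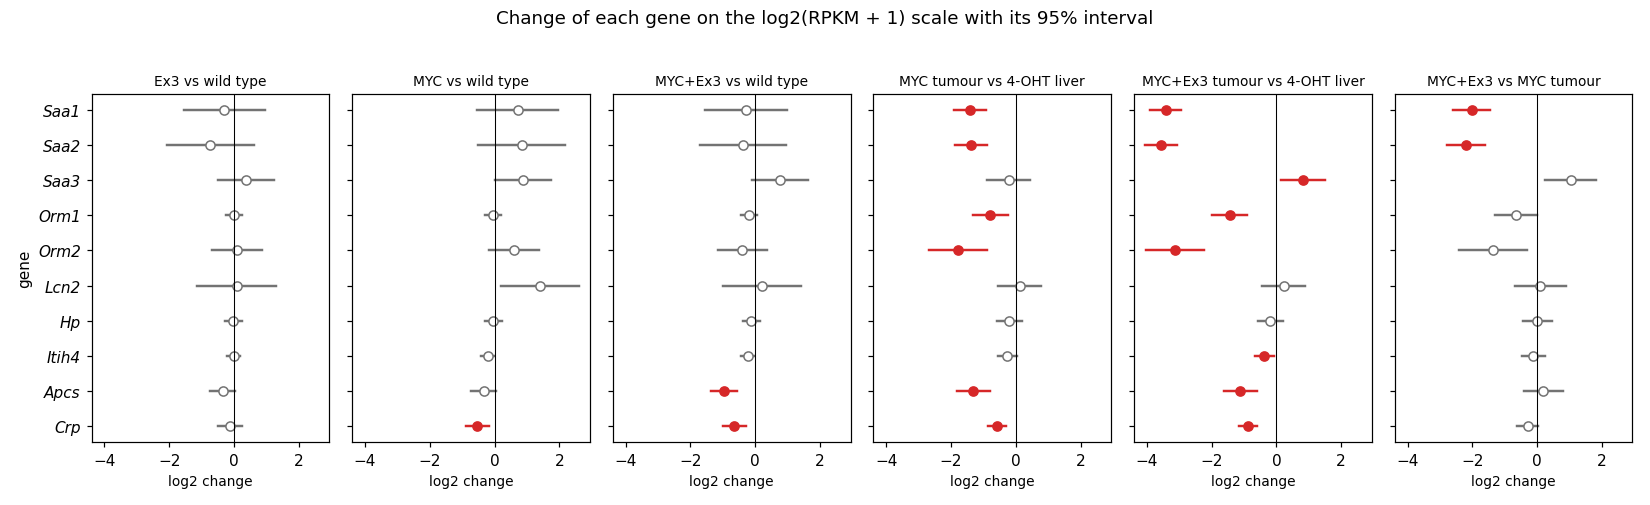
Log2 change of each gene on the log2(RPKM + 1) scale in 6 comparisons, with points at the estimate, lines for the 95% interval and red filled points for a limma adjusted p under 0.05. The intervals of Saa1, Saa2, Saa3, Orm2 and Lcn2 are wide in the short-term arm, and Saa1 and Saa2 reach -3.42 and -3.57 in MYC+Ex3 tumours.

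Groups without overlap give the same picture in counts. Below all 4-OHT livers lay 4 of the 10 genes in MYC tumours (Saa1, Saa2, Apcs and Crp), against 8.89% of all genes tested, and 7 in MYC+Ex3 tumours (those 4, Orm1, Orm2 and Itih4), against 17.8%. Between the tumours Saa1 and Saa2 did not overlap, against 7.71% of all genes lower without overlap. Above all libraries of the control lay 0 of the 10 genes in these 3 comparisons, against 26.3%, 38.2% and 8.59% of all genes.

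The markers of other cells moved in the same libraries. For these and the lists below, the shares called over all genes tested were 36.2% higher and 13.7% lower in MYC tumours. In MYC+Ex3 tumours they were 42.3% higher and 18.4% lower. Of 12 neutrophil markers tested, 6 rose in MYC tumours and 11 in MYC+Ex3 tumours, and 0 fell. Their summed level was 14.4 to 40.8 RPKM in 4-OHT livers, 14.03, 157 and 74.3 in MYC tumours 1 to 3 and 150 to 202 in MYC+Ex3 tumours, and none of the 12 was at 0 in a whole group. Of 13 macrophage markers, 10 fell in MYC tumours and 9 in MYC+Ex3 tumours, and their sum was 173 to 237 RPKM in 4-OHT livers, 66.9 to 185 in MYC tumours and 98.6 to 120 in MYC+Ex3 tumours. Clec4f, a marker of Kupffer cells, had a log2 change of -2.44 in MYC and -2.43 in MYC+Ex3 tumours (limma adjusted p = 0.00024 and 0.00014). The part of neutrophils or macrophages in the levels of Saa3, Lcn2 or any other gene was not tested. Of 11 hepatocyte markers, 0 were called in MYC tumours and 5 were lower in MYC+Ex3 tumours, the strongest being Pck1 (-1.72), Apoc3 (-0.89) and Tat (-0.73). Some of these markers, such as Apoa1 and Apob, are so abundant that a marker not called may still have changed. Of 8 endothelial markers, 6 fell in each kind of tumour, and of 8 stellate cell and fibroblast markers 3 rose and 3 fell in MYC tumours and 1 rose and 5 fell in MYC+Ex3 tumours. Of 5 lymphocyte markers tested, 1 fell in MYC and 4 in MYC+Ex3 tumours.

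A wider list of genes linked to the acute phase was split in the tumours. Of 36 further genes listed as positive acute phase genes, 4 rose and 14 fell in MYC tumours. In MYC+Ex3 tumours 5 rose and 16 fell, and the medians were -0.29 and -0.38. The strongest falls in MYC tumours were those of Vnn1, a pantetheinase (-2.62), Lrg1, a leucine-rich glycoprotein of plasma (-1.45), and Serpina3m, a serine protease inhibitor (-1.32). In MYC+Ex3 tumours they were those of Vnn1 (-3.36), Nnmt, nicotinamide N-methyltransferase (-2.36), and Hamp2, a hepcidin (-1.98). Among the strongest rises in both were those of A2m, a protease-trapping protein (2.18 in MYC and 2.57 in MYC+Ex3 tumours), and Pglyrp1, a peptidoglycan recognition protein that neutrophils store (0.97 and 2.29). A2m varied widely among the tumours, at 7.95 ± 10.9 RPKM (SD, n = 3) in MYC and 8.46 ± 10.7 (n = 3) in MYC+Ex3 tumours. It was almost absent from 4-OHT livers, at 0.0202 ± 0.0105 RPKM (SD, n = 7). Between the tumours 1 gene of the list was higher in MYC+Ex3, Il1r1, an interleukin 1 receptor (1.82), and 2 were lower, Hamp2 (-2.80) and Nnmt (-1.99).

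The list of negative acute phase genes, most of whose products fall in plasma during inflammation, did not move in one direction. Of 12, 1 rose and 1 fell in MYC tumours and 2 rose and 4 fell in MYC+Ex3 tumours. Tfrc, the transferrin receptor, is a membrane receptor rather than a secreted plasma protein. It was the only gene of the list that rose in MYC tumours (1.59), and it also rose in MYC+Ex3 tumours (1.66). Serpina6, corticosteroid-binding globulin, rose in MYC+Ex3 tumours (0.34). Igf1, the growth factor that hepatocytes secrete, fell in both (-1.39 and -2.96) and was lower in MYC+Ex3 than in MYC tumours (-1.57). Ttr (transthyretin) and F12 (coagulation factor XII) each fell by 0.38 on the log2 scale in MYC+Ex3 tumours.

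Most of the cytokine and receptor genes tested were lower in the tumours, while most signalling and factor genes were not called. Of 10 cytokine and receptor genes tested, 7 fell in each kind of tumour, none rose in MYC tumours and 1 rose in MYC+Ex3 tumours. Lifr, the leukaemia inhibitory factor receptor, which signals through gp130, fell by 2.27 on the log2 scale in MYC tumours and by 2.22 in MYC+Ex3 tumours, from 24.0 ± 3.22 RPKM (SD, n = 7) in 4-OHT livers to 4.27 ± 1.405 (n = 3) and 4.37 ± 0.837 (n = 3). Il6ra, the interleukin 6 receptor, fell in MYC tumours (-0.91), and Il1a, an interleukin 1, in MYC+Ex3 tumours (-0.93). Il1rap, the interleukin 1 co-receptor, fell in both (-0.90 and -1.16). Only the 3 largest falls in each kind of tumour are named, here and for the signalling genes below. A gene named for MYC tumours may thus have fallen in MYC+Ex3 tumours too, and the reverse. Il22ra1, the interleukin 22 receptor, was the gene that rose (0.71). Of 26 signalling and transcription factor genes, 7 fell in MYC and 11 in MYC+Ex3 tumours and 0 rose. Socs2, a suppressor of cytokine signalling, fell in both (-1.12 and -1.66), Cebpd, the C/EBPδ gene, in MYC tumours (-0.50) and Nfkb2, an NF-κB subunit, in MYC+Ex3 tumours (-0.61). Il6 itself, named here after its values were seen, was listed at 0.034 to 0.092 RPKM in the tumours and 0.059 to 0.148 in 4-OHT livers, under the filter on low values.

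**Figure D3:**
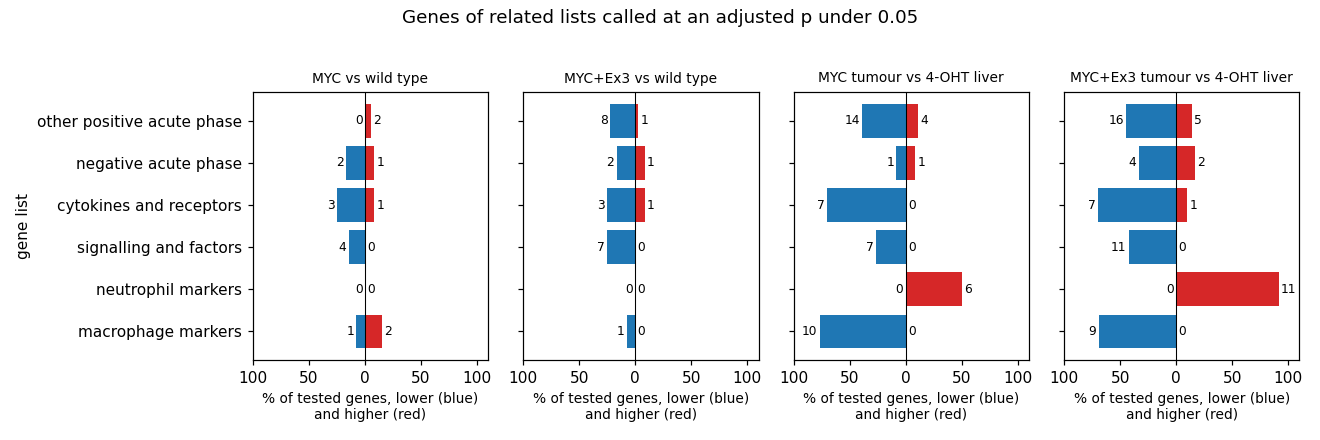
Share of the tested genes of 6 lists called lower (blue) or higher (red) in 4 comparisons, in percent, with the number of genes beside each bar. Cytokine receptors and macrophage markers lie mostly on the lower side in the tumours, with 7 of 10 and 9 or 10 of 13 genes lower, and neutrophil markers on the higher side, with 6 and 11 of 12.

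In the short-term livers few of the 10 genes were called. None of the 10 was called in Ex3 against wild-type livers, where 0.132% of 13688 genes were called, and 0 had an unadjusted p under 0.05 by limma or were called in the authors' deposited table. Crp was lower in MYC livers, 1 of 10, where 22.3% of all genes were called, 16.9% higher and 5.36% lower. Apcs and Crp were lower in MYC+Ex3 livers, 2 of 10, where 24.1% of all genes were called, 17.9% higher and 6.18% lower. The same 2 genes were lower in MYC+Ex3 than in Ex3 livers, where 21.1% were called and 4.7% lower. None of the 10 was called between MYC+Ex3 and MYC livers, where 0.19% of all genes were called, 2 had an unadjusted p under 0.05 by limma, Orm2 and Apcs, and 0 were called in the authors' deposited table. The interaction of MYC with Ex3 was called for 0 of all genes by limma, and at an unadjusted p under 0.05 for 132 genes and 1 member, Orm2. The median log2 change of the 10 genes was -0.01 in Ex3, 0.28 in MYC and -0.26 in MYC+Ex3 livers against wild type, and that of all genes 0.01, 0.07 and 0.05. These comparisons share the wild-type, Ex3 or MYC+Ex3 livers among them.

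**Figure D4:**
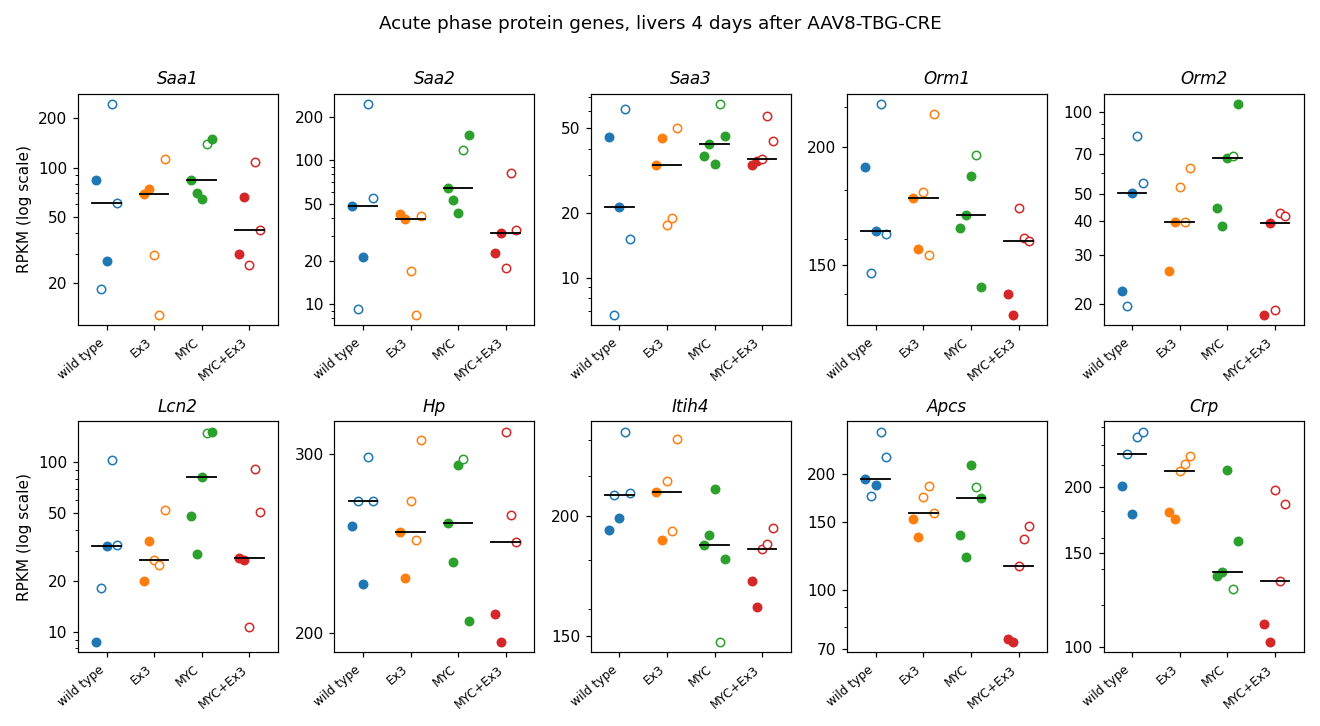
RPKM (log scale) of the 10 genes in 5 livers of each short-term group, with one point per liver, open where the sum of Krt5, Krt14 and Krt17 was above 1 RPKM, and a black bar at the median. Wild-type liver 4 is the highest wild-type liver for Saa1, Saa2 and Lcn2, and all 5 MYC+Ex3 livers lie below the wild-type livers for Apcs.

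Apcs gave the clearest short-term change, though its dependence on library depth was not computed. It stood at 194, 175, 187, 258 and 222 RPKM in wild-type livers 1 to 5, at 153, 137, 174, 186 and 158 in Ex3 livers, at 138, 121, 211, 185 and 173 in MYC livers and at 74.5, 73.1, 115, 135 and 146 in MYC+Ex3 livers. All MYC+Ex3 livers lay below all wild-type livers, the only gene of the 10 without overlap in that comparison, where 3.7% of all genes were lower and 13.5% higher without overlap. In the other short-term comparisons 0 of the 10 genes lay without overlap, where 0.563% of all genes were lower and 1.03% higher in Ex3 against wild type, 2.4% and 10.9% in MYC against wild type, 5.02% and 15.2% in MYC+Ex3 against Ex3, and 0.183% and 0.497% in MYC+Ex3 against MYC. The log2 change was -0.97 ± 0.19 in MYC+Ex3 against wild type (limma adjusted p = 0.0007), -0.35 ± 0.19 in Ex3 (limma adjusted p = 0.966) and -0.33 ± 0.19 in MYC (limma adjusted p = 0.212). Against Ex3 livers it was -0.62 ± 0.19 (limma adjusted p = 0.0227) and against MYC livers -0.63 ± 0.19 (limma adjusted p = 0.541). The interaction of MYC with Ex3, which tests whether the joint change exceeds the sum of the single ones, was -0.28 ± 0.26 (limma adjusted p = 0.9999).

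Crp stood at 201, 231, 178, 249 and 254 RPKM in wild-type livers 1 to 5, at 179, 174, 214, 221 and 229 in Ex3 livers, at 136, 138, 215, 129 and 158 in MYC livers and at 110, 102, 198, 133 and 186 in MYC+Ex3 livers. MYC and MYC+Ex3 livers were mostly low, and both overlapped with wild type. The log2 change was -0.53 ± 0.18 in MYC (limma adjusted p = 0.0349) and -0.64 ± 0.18 in MYC+Ex3 (limma adjusted p = 0.0109) against wild type, and -0.52 ± 0.18 in MYC+Ex3 against Ex3 (limma adjusted p = 0.0401). The interaction was 0.01 ± 0.25 (limma adjusted p = 0.9999).

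Some short-term libraries held epidermal keratin RNA (Krt5, Krt14 and Krt17 summing to over 1 RPKM), which no label accounts for. They were 1 MYC liver and 3 livers of each other group. Their library totals were 3.75 to 5.10 M, against 5.26 to 7.32 M in the keratin-free livers other than MYC liver 3 (4.39 M). The keratin sets thus also differ in depth, and keratin and depth cannot be told apart in the values below. For Apcs in MYC+Ex3 against wild type the log2 change was -1.36 in the keratin-free livers (limma adjusted p = 0.00222) and -0.70 in the keratin-bearing ones (limma adjusted p = 0.0122), and for Crp -0.82 and -0.52 (limma adjusted p = 0.0144 and 0.0291). Against Ex3 the changes were -0.96 and -0.38 for Apcs (limma adjusted p = 0.0131 and 0.13) and -0.73 and -0.38 for Crp (limma adjusted p = 0.0282 and 0.108). The fall of Crp in MYC livers was -0.25 in the keratin-free livers (limma adjusted p = 0.408), and a keratin-bearing comparison was not possible with 1 MYC liver. With the keratin set as a batch term it was -0.40 (limma adjusted p = 0.0647), and without the filter on low values its limma adjusted p was 0.0578. It was also not called without MYC liver 1, 2 or 4 or wild-type liver 2, 4 or 5, with log2 changes of -0.51 to -0.47 and limma adjusted p of 0.0676 to 0.0926. The fall of Apcs against Ex3 was not called without Ex3 liver 3 or 4 or MYC+Ex3 liver 1 or 2 (limma adjusted p = 0.052 to 0.0804), and that of Crp without Ex3 liver 3, 4 or 5 or MYC+Ex3 liver 1, 2 or 4 (limma adjusted p = 0.0777 to 0.128), without the filter (limma adjusted p = 0.0656) or with only those groups fitted (limma adjusted p = 0.0578).

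The strongly inducible genes showed the widest spread. Over the 20 short-term livers the highest value was 18.8 times the lowest for Saa1, 28.9 times for Saa2, 17.4 times for Lcn2, 9.59 times for Saa3 and 5.82 times for Orm2, but 1.61 to 3.53 times for Hp, Itih4, Orm1, Crp and Apcs.

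Saa1 stood at 84.4, 18.4, 27.0, 242 and 61.4 RPKM in wild-type livers 1 to 5, at 68.8, 74.2, 29.5, 12.9 and 113 in Ex3 livers, at 84.5, 70.2, 64.2, 139 and 149 in MYC livers and at 30.2, 66.3, 25.8, 108 and 42.2 in MYC+Ex3 livers. The groups overlapped throughout, and the wild-type livers alone spanned the range of all other livers but Ex3 liver 4. The log2 change against wild type was -0.29 ± 0.60 in Ex3, 0.71 ± 0.60 in MYC and -0.28 ± 0.60 in MYC+Ex3 livers, and none was called.

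Saa2 stood at 47.8, 9.20, 21.3, 245 and 54.3 RPKM in wild-type livers 1 to 5 and at 63.9, 53.2, 42.9, 118 and 149 in MYC livers, and at 8.48 to 42.3 in Ex3 and 17.9 to 82.0 in MYC+Ex3 livers. Saa3 stood at 6.72 to 60.9 RPKM in wild-type, a median of 33.4 in Ex3, 33.7 to 64.5 in MYC and 33.4 to 56.8 in MYC+Ex3 livers, with a log2 change of 0.89 ± 0.42 in MYC (limma adjusted p = 0.131). Without wild-type liver 4, the highest wild-type liver for Saa3, the change was 1.23 in MYC livers and 1.12 in those with both alleles, and both passed (limma adjusted p = 0.0313 and 0.0462). Without wild-type liver 2, the lowest, they were 0.48 and 0.37 (limma adjusted p = 0.378 and 0.4997), and in keratin-free livers alone 0.33 and 0.13 (limma adjusted p = 0.467 and 0.783).

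Lcn2 stood at 8.71, 18.2, 31.9, 103 and 32.6 RPKM in wild-type livers 1 to 5, at 20.0, 34.5, 26.4, 24.7 and 52.4 in Ex3 livers, at 48.0, 29.0, 81.4, 149 and 152 in MYC livers and at 27.1, 26.6, 10.6, 91.8 and 50.9 in MYC+Ex3 livers. MYC livers were mostly high, and wild-type livers 3, 4 and 5 lay within their range. The log2 change in MYC livers was 1.405 ± 0.58 (limma adjusted p = 0.0885). It was called without wild-type liver 4 (1.86, limma adjusted p = 0.0222), without MYC liver 2 (1.75, limma adjusted p = 0.0374) and with the keratin set as a batch term (1.70, limma adjusted p = 0.0356), and was 1.88 in the keratin-free livers alone (limma adjusted p = 0.085). Without wild-type liver 1, the lowest, it was 1.007 (limma adjusted p = 0.221).

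Orm2 stood at 22.3, 19.7, 50.7, 81.3 and 54.9 RPKM in wild-type livers 1 to 5, at 26.4, 39.7, 53.0, 39.8 and 62.4 in Ex3 livers, at 44.5, 38.5, 67.9, 68.8 and 106 in MYC livers and at 18.3, 39.4, 18.9, 42.8 and 41.8 in MYC+Ex3 livers. The MYC+Ex3 livers were low and the MYC livers high, with 1 MYC liver inside the range of the other group. The difference between them was -0.999 ± 0.37 (unadjusted p = 0.0134 and adjusted p = 0.9999 by limma), and the interaction -1.09 ± 0.52 (unadjusted p = 0.0498 and adjusted p = 0.9999 by limma). Orm1, Hp and Itih4 were at 133 to 222, 196 to 316 and 148 to 245 RPKM over the 20 livers. Their log2 changes against wild type ran from -0.24 to 0.00 and none was called, except that Itih4 in MYC+Ex3 livers passed when MYC liver 4 was left out of the fit (limma adjusted p = 0.0446).

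Markers of neutrophils were uneven among the same livers. The sum of 12 markers was 211 RPKM in wild-type liver 4 and 142 in wild-type liver 5, against 19.8 to 40.2 in the other wild-type livers, and 187 and 152 RPKM in MYC livers 3 and 5. Over all short-term livers it was 19.8 to 211 RPKM, and 0 of the 10 markers tested were called in any comparison. Their part in the levels of Lcn2 and the Saa genes was not tested.

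Livers with much Saa1 were not simply those with much Orm2. With the group means taken off, the Pearson r of log2(RPKM + 1) with Saa1 over the 20 short-term livers was 0.96 for Saa2, 0.83 for Saa3, 0.57 for Lcn2 and 0.52 for Orm2, while Orm2 had its highest r of the members with Lcn2 (0.84). Among 9651 genes with a mean of at least 5 RPKM, the 5 genes outside the members most like Saa1 were Dnajc12 (0.87), Saa4 (0.80), Cyb561 (0.78), Slc41a2 (0.77) and Usp12 (0.76). Those most like Orm2 were Dync1i2 (0.76), Msn (0.75), Vim (0.73), Ptpn12 (0.73) and Ppil4 (0.72). In the tumour arm, over 13 libraries and 5473 genes, the genes most like Saa1 included Saa4 (0.81), Isyna1 (0.80), Mt1 (0.77) and Mt2 (0.75), and Saa1 had an r of 0.94 with Saa2. Orm2 was there most like Cyp2c70 (0.87), Cyp2c37 (0.87), Flt4 (0.86), Akr1d1 (0.86) and Nrn1 (0.86), and had an r of 0.71 with Orm1. Saa4 is the constitutive serum amyloid A gene, and Mt1 and Mt2 are metallothioneins. These are descriptions over libraries that share depth and RNA quality.

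Other acute phase genes changed sparsely in the short-term arm. Over all genes tested, 16.9% were called higher and 5.36% lower in MYC livers, and 17.9% and 6.18% in MYC+Ex3 livers. Of the 35 further positive acute phase genes tested, 0 were called in Ex3 livers. In MYC livers 2 rose, among them Tgm2, a transglutaminase (0.48), and 0 fell. In MYC+Ex3 livers 1 rose and 8 fell, led by Nnmt (-0.94), Lrg1 (-0.86) and Hamp, the iron hormone hepcidin (-0.70). Of 12 genes of the negative acute phase list, 1 rose and 2 fell in both MYC and MYC+Ex3 livers. The gene that rose was Tfrc, the membrane receptor (1.19 and 1.09), while Igf1 (-0.87 and -1.28) and Fetub, a fetuin (-0.62 and -0.54), fell. Of 12 cytokine and receptor genes, 1 rose and 3 fell in both. Lif, a gp130 cytokine, rose (0.90 and 1.12), while Lifr (-1.08 and -0.68), Il1rap (-0.64 and -0.60) and Il6st, the gp130 gene (-0.37 and -0.54), fell. Lif stayed at a low level, with a mean of 0.183 RPKM in wild-type, 1.26 in MYC and 1.65 in MYC+Ex3 livers. Of 28 signalling genes, 4 fell in MYC and 7 in MYC+Ex3 livers. Among the largest falls in both were Socs2 (-1.26 and -1.15) and Nr3c1, the glucocorticoid receptor (-0.46 and -0.52). Jak2, a kinase below gp130 (-0.38), was among them in MYC livers and Stat3 (-0.58, limma adjusted p = 0.0498) in MYC+Ex3 livers. As only the 3 largest falls are named, Jak2 and Stat3 may also have fallen in the other group.

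The abundance of some of these genes set a limit to what could be measured. The highest number of reads per base of any gene was 1.47 to 1.81 in every library, whether it held 3.75 or 9.82 M reads in genes. Hp was at 1.17 to 1.54 reads per base in all 33 libraries, Itih4 at 0.671 to 1.51 and Crp at 0.584 to 1.28, and Apcs and Orm1 reached 1.25 and 1.24. Across short-term libraries the log2 reads of Hp rose by 0.28 per doubling of the library total, those of Crp by 0.15 and those of Itih4 by 0.78, against 1.23 for genes outside the top 50. In the tumour arm the slopes were -0.16 for Hp, 0.17 for Itih4 and 0.29 for Crp, against 0.77. The reads of Hp and Crp thus grew little with depth in both arms, and those of Itih4 in the tumour arm. As RPKM divides by the library total, their RPKM tended to fall with depth. Changes of these genes may be understated, or overstated where totals differ between groups. The median slope of the top 50 genes was 0.29 in the short-term arm and 0.047 in the tumour arm. The limit thus also applies to abundant genes of the lists above, and such a gene not called may still have changed. Ahsg, Apoa1, Apob and Hpx, for example, were each the highest gene of a library. MYC+Ex3 livers 1 and 2, the lowest in Crp of their group, had totals of 6.57 and 7.32 M, and liver 3, the highest, 3.75 M. Livers 1 and 2 were also the lowest of that group in Apcs, while liver 3 was not the highest. No slope with depth was computed for Apcs, and the part of depth in its change was not tested. Saa1 reached 1.23 reads per base in the 4-OHT livers and Saa2 1.02, while the tumours held 0.0377 to 0.362 for Saa1, so the falls of these genes may be understated too.

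**Figure D5:**
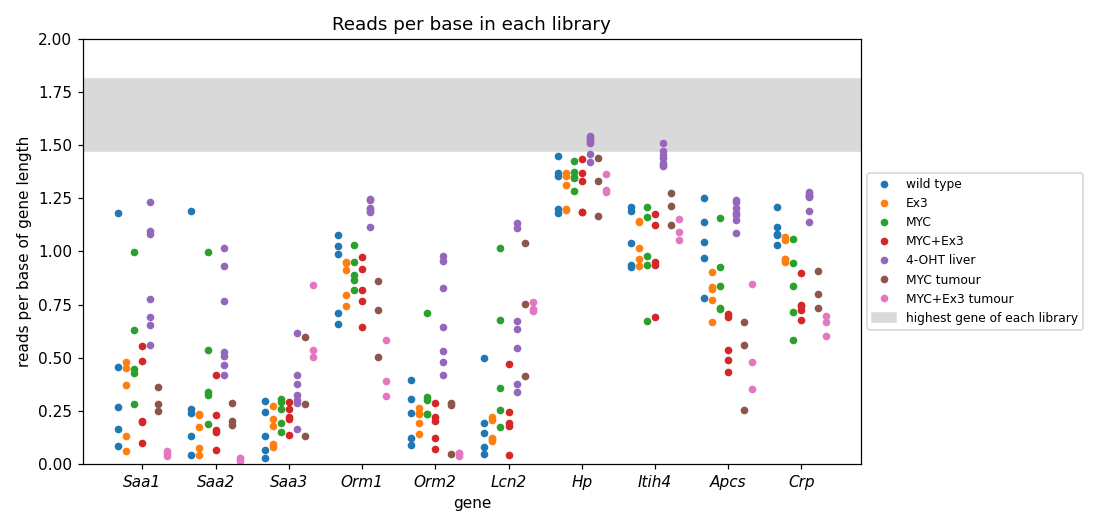
Reads per base of gene length for each gene in each of the 33 libraries, with points coloured by group and a grey band for the highest gene of each library (1.47 to 1.81). Hp, at 1.17 or more, lies closest to the band in all groups, while Saa1, Saa2 and Orm2 span most of the axis.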

How the data were processed

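Total RNA was sequenced as strand-specific libraries in 33 samples (20 short-term livers, 6 tumours and 7 livers after 4-OHT), each grouped by its title, genotype and treatment labels. Reads were aligned with TopHat2 2.0.8 to mm9 and counted with featureCounts 1.4.5-p1, per the submitters' processing notes; any removal of duplicate reads is not given in the sources used here. The deposited values are RPKM, scaled by the authors to a library total, and reads and gene lengths were recovered from their steps (100% of values whole in 20485 genes above 0) for depth only. The authors' deposited table also gives log2 fold changes and adjusted p-values of their comparisons, made with DESeq2 per the submitters' processing notes. Per the file headers, no column belonged to another sample (0 set aside).

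limma 3.58.1 in R 4.3.3 (lmFit, eBayes with a trend) was run, two-sided, on log2(RPKM + 1), with the 20 short-term livers in one fit and the other 13 libraries in another. Genes with an RPKM of at least 1 in at least 3 libraries were tested in 9 comparisons, with Benjamini-Hochberg adjustment over all genes, and called under 0.05. The script was tested on simulated data. Every one of the 10 genes is named, and of each other list the called genes with the 3 largest rises and 3 largest falls. A few genes that this rule or the likeness ranking would name are not reported here. The members and lists were chosen with earlier results of these data known. Alternatives covered the pseudocount (0.1), the filter (none or an RPKM of 5), median-ratio scaling, the groups in the fit, sex read from the data, keratin sets, sets of 4-OHT livers by title (S14 and S15), and each library left out. Read from Ddx3y and Xist, all MYC tumours were male, and every other group held both sexes in shares that differed between groups. Scaling to reads in genes was added after seeing the data. Figures and motifs used Python 3.11.15.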

Additional observations from a re-analysis of the deposited data

Results flagged for a closer look

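Of 50 groups of 4 to 7 libraries examined, 5 short-term or 4-OHT groups for each of the 10 genes, 3 held a library set far apart from the others by Dixon's gap test at the 95% level, and chance flags about 1 in 20. Saa2 in wild-type liver 4 stood at 245 RPKM, against 9.20 to 54.3 in the other wild-type livers. Lcn2 in the same liver stood at 103 RPKM, against 8.71 to 32.6 in the others, and that liver also had the highest sum of neutrophil markers (211 RPKM). Saa2 in MYC+Ex3 liver 4 stood at 82.0 RPKM, against 17.9 to 32.7 in the other MYC+Ex3 livers.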

How the results depend on the processing

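The falls of Saa1, Saa2, Orm2, Apcs and Crp in both kinds of tumour, of Orm1 in MYC+Ex3 tumours, of Saa1 and Saa2 between the tumours, and of Apcs and Crp in MYC+Ex3 against wild-type livers kept their direction and stayed under the threshold in every alternative run. The number of the 10 genes called in MYC against wild type was 0 without the filter and 0 in keratin-free livers, in MYC+Ex3 against Ex3 it was 1 without the filter, 1 when only those groups were fitted and 0 in keratin-bearing livers, and in MYC+Ex3 against MYC livers it was 1 with the keratin set as a batch term (Apcs, -0.78, limma adjusted p = 0.0375). With each library left out the count ran from 0 to 2 in MYC against wild type, from 0 to 2 in MYC+Ex3 against Ex3 and from 2 to 4 between the tumours. The cause of these changes was not tested. No paired analysis was possible because the labels give no replicate numbers, only animal numbers that no other group shares.

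Counts over all genes moved more. Ex3 against wild type called 18 genes, 31 with sex as a covariate and 2 in either keratin set, and MYC+Ex3 against MYC livers called 26, and 11 with a pseudocount of 0.1, 10 without the filter, 10 with only those groups and 6 in keratin-free livers. MYC against wild type called 3047 and 1249 in keratin-free livers, and MYC+Ex3 against Ex3 2893 and 1668 in keratin-bearing livers. At a filter of 5 RPKM the tumour comparisons called 3636, 4278 and 240 genes, for 5907, 7189 and 489 in MYC, in MYC+Ex3 and between the tumours, and the last was 70 with only those groups. With each library left out, the count ran from 5 (without Ex3 liver 3) to 22 in Ex3 against wild type, from 7 (without MYC liver 1) to 37 in MYC+Ex3 against MYC livers and from 199 (without MYC+Ex3 tumour 3) to 764 (without MYC tumour 2) between the tumours, so the shares of genes called there rest on single libraries. Median-ratio scaling moved the share of higher calls, from 2313 of 3047 to 1880 of 3182 in MYC and from 2455 of 3301 to 2049 of 3350 in MYC+Ex3 against wild type, from 2249 of 2893 to 1940 of 2896 in MYC+Ex3 against Ex3, and from 4286 of 5907 to 3195 of 5983 in MYC and from 5011 of 7189 to 3996 of 7238 in MYC+Ex3 tumours.

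Changes that were called in neither fit took the opposite sign under some alternatives. With the keratin set as a batch term in MYC against wild type Orm1 was 0.022 and Hp 0.073 and in the interaction Crp was -0.12. After median-ratio scaling in Ex3 against wild type Orm1 was -0.018, in MYC+Ex3 against Ex3 Saa1 was -0.050, in the interaction Itih4 was 0.025 and in MYC tumours against 4-OHT livers Lcn2 was -0.094. In keratin-bearing livers alone in Ex3 against wild type Lcn2 was -0.28 and in MYC+Ex3 against wild type Lcn2 was -0.086. In keratin-free livers alone in Ex3 against wild type Saa1 was 0.57, Saa2 0.33, Orm1 -0.085, Orm2 -0.056, Hp 0.00022 and Itih4 0.027, in MYC against wild type Hp was 0.039, in MYC+Ex3 against Ex3 Saa1 was -0.66, Saa2 -0.58 and Saa3 -0.17 and in the interaction Crp was -0.48. With reads in genes as the library total in MYC tumours against 4-OHT livers Lcn2 was -0.0056 and in MYC+Ex3 against MYC tumours Hp was -0.028. With sex as a covariate in Ex3 against wild type Orm1 was -0.031, in MYC+Ex3 against Ex3 Saa1 was -0.22 and in MYC+Ex3 against MYC tumours Lcn2 was -0.13. With each library left out, further uncalled changes crossed 0. Ex3 against wild type gave Saa1 -0.69 to 0.22, Saa3 -0.030 to 0.72, Orm1 -0.076 to 0.085, Orm2 -0.16 to 0.34, Hp -0.078 to 0.035, Lcn2 -0.32 to 0.54 and Itih4 -0.061 to 0.042. MYC against wild type gave Orm1 -0.098 to 0.048 and Hp -0.097 to 0.037. MYC+Ex3 against wild type gave Saa1 -0.68 to 0.23, Saa2 -0.90 to 0.25 and Lcn2 -0.19 to 0.66. MYC+Ex3 against Ex3 gave Saa1 -0.43 to 0.33, Saa2 -0.021 to 0.55 and Lcn2 -0.24 to 0.51. MYC+Ex3 against MYC livers gave Saa3 -0.24 to 0.026, Hp -0.17 to 0.0021, Crp -0.24 to 0.0096 and Itih4 -0.10 to 0.029. The interaction gave Saa2 -1.12 to 0.028, Hp -0.16 to 0.016, Crp -0.11 to 0.13 and Itih4 -0.091 to 0.040. MYC tumours against 4-OHT livers gave Saa3 -0.64 to 0.071 and Lcn2 -0.078 to 0.26. MYC+Ex3 against MYC tumours gave Hp -0.16 to 0.29, Lcn2 -0.034 to 0.30, Apcs -0.16 to 0.55 and Itih4 -0.24 to 0.051.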
